A study of Mus musculus with 24 samples.

Results

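The 75 genes described here carry the systematic names of the proteins of the cytosolic ribosome, Rpl for the large subunit and Rps for the small one. They were chosen by symbol alone from a table of 55450 mouse genes: a gene entered when its symbol was Rpl or Rps with a number and at most the letters a, x or p and a further digit, when it was not 1 of 7 named paralogs, and when its counts summed to at least 100 over all libraries. The lowest total inside that limit was 149, for Rps3a3, and no gene of the pattern fell below it. Of the 75 genes, 43 belong to the large and 32 to the small subunit. 73 are annotated as protein-coding, and the remaining 2, Rps3a2 and Rps3a3, are processed pseudogenes whose names fit the pattern. The pattern leaves out 7 further genes that also encode ribosomal proteins, such as Rplp0, Rplp1, Rpsa and Rack1, which are given further on as a list of their own.

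RNA of 3 tissues, cerebellum, liver and testes, was sequenced from Thumpd1 knockout (KO) mice and from wild-type (WT) controls, with 4 libraries for each genotype and tissue and 24 in all. The mice were kept on a C57/BL6 background, and the eggs injected to make the line were C57BL/6N. In the KO mice both Thumpd1 alleles carried a deletion made with Cas9 and a pair of guides aimed at exons 1 and 4, without a tissue-specific promoter, so that the deletion was not confined to a cell type. Several founder lines are described, and which line gave which library was not stated. Mice were between 6 and 12 weeks old and of either sex, and the controls were littermates of matching age. Thumpd1 is the adaptor with which the enzyme Nat10 acetylates cytidine in a few tRNAs, and the study asked how losing that mark changes gene expression. No treatment was given. The labels number the libraries 1 to 4 in WT and 5 to 8 in KO. The methods give the tissues of 4 mice per group, whereas no label ties a library to an animal, so p-values measure the spread between these libraries.

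Most ribosomal proteins are present in a single copy per ribosome, and the genes for these proteins are among the most highly transcribed of a growing cell. Their mRNAs begin with a C followed by a run of pyrimidines, the 5′ terminal oligopyrimidine or TOP motif, through which Larp1 and the kinase mTOR set their translation and stability together. Many of the genes carry a small nucleolar RNA (snoRNA), a guide for rRNA modification, in an intron, and most have left retrotransposed copies across the genome. Ribosomal proteins that are not built into a ribosome are degraded, and Rpl5 and Rpl11 together with the 5S rRNA then bind Mdm2, the ubiquitin ligase of p53.

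Thumpd1 stood at 21.8 to 24.02 expected counts per 1000000 of the library total (CPM) in WT cerebellum and at 0 to 0.113 in KO, at 9.19 to 10.1 in WT liver and at 0 to 0.106 in KO, and at 24.3 to 26.3 in WT testes and at 0.768 to 1.14 in KO. Every library thus matched its genotype label. Library totals ran from 16353797 to 37889615 expected counts. Libraries with neighbouring numbers resembled each other within several groups. In liver KO, libraries 5 and 6 both lay above, or both below, libraries 7 and 8 for 60 of 74 ribosomal protein genes, against 61.4% of all genes tested. In liver WT the pair 1 and 2 stood apart from 3 and 4 for 59 of 74, with 1 and 2 higher in 58 of them, against 59.9% of all genes. In testes KO libraries 5 and 6 were above 7 and 8 for 40 of 73, or 54.8%, and the pairs stood apart for 61.9% of all genes. In cerebellum WT libraries 1 and 2 were above 3 and 4 for 37 of 73, or 50.7%, against 42.9% of all genes standing apart. The labels do not say what neighbouring numbers share. Counts of genes are therefore also given with neighbouring libraries summed, which leaves 2 samples per group, an alternative chosen after seeing the data.

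The RefSeq promoter table (GRCm38.p6) held a start for 54 of the 73 coding genes, under 64 entries. In 12 of the 54, or 22.2%, the annotated start was a C that opened a run of at least 5 pyrimidines, itself included, on the strand of the gene, against 3.01% of 27025 genes. The letters CTTTCC lay between 15 bases before and 25 after the start in 9 of the 54, or 16.7%, against 2.27% of all genes. The letters CCGGAAG, the core of sites for ETS-family factors, were found on either strand of the 300 bases around the start in 22 of the 54, or 40.7%, against 9.93%. RefSeq's start lay within 50 bp of the GENCODE gene start in 35 of the 54, so a missing run of pyrimidines says only that it is not at that annotated base. The starts below were picked from those 12 genes, so that their likeness comes from the choice, and they show what such a start looks like in genes whose values are given further on. Each runs from 8 bases before the start to 20 bases from it, 5′ to 3′ on the strand of the gene. The run of pyrimidines from the RefSeq start is in capitals. The start of Rps6 lay 45 bp from its GENCODE gene start, and the others lay 56 bp (Rpl38) to 493 bp (Rpl35) from theirs.
Rpl14 (chr9:120571509-120571536, plus strand): ccctctctCTTCTCgctgagcgccgcca
Rpl15 (chr14:18270967-18270994, minus strand): aaagccttCTTCCTTTCCTCTggcggca
Rpl28 (chr7:4792957-4792984, plus strand): tcgtgtctCTCTTTCCgtctccggccgc
Rpl35 (chr2:39005112-39005139, minus strand): gccctttcCTCTTTCTCTCgaaccaggc
Rpl38 (chr11:114668572-114668599, plus strand): gcctcgttCTTTCCCCgttctcttcggt
Rps6 (chr4:86857348-86857375, minus strand): agtcgggcCTCTTTTTCgtgacgcctcc
Rps18 (chr17:33955646-33955673, minus strand): cttccgctCTCTCTTCCacaggaggcct

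The CCGGAAG core, or its complement CTTCCGG, is shown in capitals for 3 of the 22 genes that hold it, chosen as examples whose levels are given further on, with 10 bases on either side and the strand of the gene.
Rps2 (chr17:24719926-24719952, plus strand): tttatacgtcCTTCCGGctggtgtagg
Rpl41 (chr10:128549208-128549234, minus strand): agtaaggcagCCGGAAGtcgctgtctc
Rps7 (chr12:28635951-28635977, minus strand): ttcagaagagCTTCCGGtttccaccca

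The 73 coding genes lie on 19 chromosomes of the mm10 build, with 4 on the X chromosome. 28 of them hold 54 annotated snoRNA genes. Exons of 18 overlap a gene on the other strand, among them Rps2 with Snhg9, Rpl5 with Fam69a, Rpl18 with Sphk2, Rpl15 with Nkiras1 and Rps18 with Vps52. The strand used in counting was not stated in the sources used here, so reads of these pairs may not be told apart. Expected counts were not whole numbers in all 24 libraries for 50 genes (tolerance 0.005), as happens where reads are divided among rows, and what they were shared with was not tested. Rows named as pseudogenes of a coding gene held over 5% of the combined count for 11 genes, among them Rpl27 (38.2%), Rpl31 (34.0%), Rps6 (31.9%) and Rps23 (20.2%). The levels of these genes are uncertain.

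Together the 75 genes gave 0.371% to 0.408% of the counts of a WT cerebellum library, 0.616% to 0.754% in WT liver and 0.695% to 0.747% in WT testes. In cerebellum KO they gave 0.437% to 0.444%, above every WT library. In liver KO they gave 0.731% to 0.773% and in testes KO 0.608% to 0.755%, both overlapping WT. The lowest liver value, of WT library 4, belonged to the library in which 6 abundant noncoding RNAs took 31.0% of the counts, against 17.5% to 27.2% in the other liver libraries. With these RNAs taken out of the total, the share was 0.893% to 0.931% in liver WT and 0.937% to 1.02% in liver KO, without overlap, while in testes it was 0.733% to 0.790% and 0.643% to 0.795% and in cerebellum 0.395% to 0.438% and 0.467% to 0.477%. The lowest testes value was that of KO library 8.

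**Figure D1:**
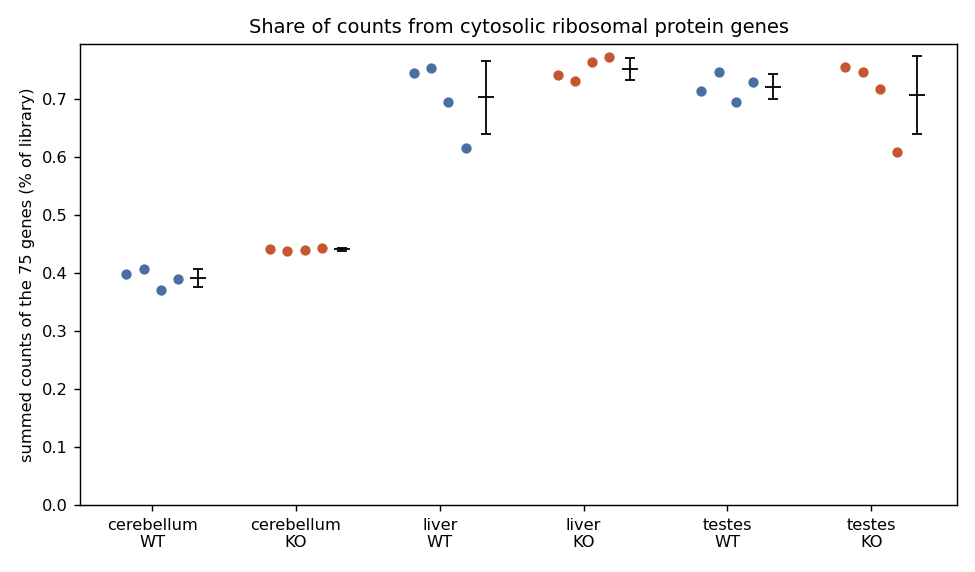
Counts of the 75 ribosomal protein genes as a percentage of all counts of a library (vertical axis, from 0), with 1 point per library in numerical order, WT in blue and KO in orange, and bars for the mean ± SD of 4 libraries. The 4 cerebellum KO libraries, at 0.437% to 0.444%, lie above the 4 WT libraries, at 0.371% to 0.408%, and in liver and testes the genotypes overlap. With 6 abundant noncoding RNAs taken out of the total, which is not drawn, the liver genotypes part as well, at 0.893% to 0.931% in WT and 0.937% to 1.02% in KO.

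Among WT tissues the genes stood lowest in cerebellum. All 73 coding genes differed between WT cerebellum and WT liver in limma at an adjusted p under 0.05, where 89.7% of the 11112 genes tested differed, and 72 of the 73 were lower in cerebellum, where 44.5% of all genes were. The median difference was -1.66 on the log2 scale, against 0.02 over all genes. Rps15a alone was higher in cerebellum on this scale, by 0.74. Between testes and liver 45 were lower in testes and 14 higher, with a median of -0.42, where 45.6% of all genes were lower and 45% higher. Between testes and cerebellum 63 were higher in testes and 7 lower, with a median of 1.24, where 44.8% were higher and 45.3% lower. These differences carry the TMM factors of the fit, which bring the bulk of genes to a like level in each tissue. In the same limma fit on library totals without such factors, the scale of the CPM values in the text, chosen after seeing the data, the median over all genes was 0.98 in cerebellum minus liver, 0.62 in testes minus liver and -0.32 in testes minus cerebellum. On that scale 60 ribosomal protein genes were lower and 6 higher in cerebellum than in liver (median -0.70), the 6 being Rps15a (1.70), Rpl22 (0.48), Rpl21 (0.41), Rpl39 (0.30), Rpl30 (0.27) and Rps27a (0.25), where 24.6% of all genes were lower and 66.9% higher. Testes against liver then turned direction, with 38 higher and 28 lower and a median of 0.22, where 58.4% of all genes were higher and 32.4% lower, and the 75 genes summed to 7215 ± 219 CPM in WT testes and 7026 ± 632 CPM in WT liver (SD, n = 4). The testes and liver levels of the list as a whole thus have no order that holds on both scales. Testes against cerebellum gave 61 higher and 10 lower, with a median of 0.94, where 37.3% of all genes were higher and 52.5% lower. Fewer cells of a type and less RNA per cell cannot be told apart in bulk samples.

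Rps2, a small-subunit protein beside the channel through which mRNA enters, showed the widest gap between tissues. It stood at 644, 645, 602 and 554 CPM in the 4 WT liver libraries, at 84.8, 84.6, 74.7 and 71.4 CPM in WT cerebellum and at 153, 168, 151 and 149 CPM in WT testes. The ranges of the 3 tissues do not touch. The limma log2 difference was -3.91 ± 0.0718 (SE, adjusted p 2.21e-25) for cerebellum minus liver and -2.62 ± 0.0671 (SE, adjusted p 1.60e-22) for testes minus liver with TMM factors, and -2.95 ± 0.0779 and -1.98 ± 0.0739 (SE) on library totals, the scale of these CPM values. The gene lies on chromosome 17 (24718116 to 24721929, plus strand, mm10). After Rps2, cerebellum and liver differed most, with TMM factors, in Rpl10 (-2.78), Rpl41 (-2.73), Rps18 (-2.61) and Rpl36 (-2.54), and testes and cerebellum in Rpl41 (2.71), Rpl36 (2.48), Rps20 (2.41), Rps28 (2.21) and Rpl32 (2.18).

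Per kilobase of transcript, the scale on which genes can be compared with each other, Rps2 led in WT liver at 612 CPM per kb, followed by Rpl41 at 446 and Rpl10 at 271. In WT testes Rpl41, which encodes the shortest ribosomal protein, led at 686 CPM per kb, and Rps29 followed at 396. In WT cerebellum Rps29 led at 172 CPM per kb, before Rps15a at 139.9 and Rps15 at 139. Lengths are those of 1 representative transcript per gene, from 271 to 3706 bp with a median of 729, so the order depends on that choice. The pseudogenes Rps3a2 and Rps3a3 stood at most at 1.74 and 0.577 CPM in any library.

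The 4 X-linked genes Rpl10, Rps4x, Rpl36a and Rpl39 were among the lowest in testes relative to the other tissues. Rpl10, a large-subunit protein that joins late in assembly, stood at 248, 237, 219 and 164 CPM in WT liver, at 62.2, 64.8, 54.6 and 59.7 CPM in WT cerebellum and at 27.3, 34.2, 26.2 and 26.4 CPM in WT testes. Rps4x of the small subunit stood at 17.02, 18.7, 14.2 and 15.01 CPM in WT testes, against 102 to 125 CPM in WT liver and 55.1 to 60.4 CPM in WT cerebellum. For both genes every testes library lay below every library of the other tissues. In testes minus liver the limma log2 differences were -3.57 for Rpl10, -3.46 for Rps4x, -2.43 for Rpl36a and -1.79 for Rpl39, while the autosomal Rps2 lay between them at -2.62 and the median of the 73 genes was -0.42. On library totals they were -2.92, -2.81, -1.78 and -1.15, beside a median of 0.22. In testes minus cerebellum, where 63 genes were higher in testes, these 4 were lower, by -0.78, -1.56, -1.17 and -1.14 in the same order, together with Rpl22 (-0.85), Rpl3 (-0.20) and Rps3 (-0.20). On library totals the 4 were again lower, by -1.09, -1.87, -1.48 and -1.45.

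Autosomal paralogs of these genes showed other patterns. Rpl10l, a retrogene copy of Rpl10 used by male germ cells, stood at 105, 103, 109 and 108 CPM in WT testes and at 0 counts in all cerebellum and liver libraries, where 3 counts, the limit that a count of 0 allows, came to at most 0.183 CPM by counting error alone. Rpl39l stood at 124, 122, 114 and 122 CPM in WT testes and at no more than 0.0565 CPM elsewhere. Rps4l stood at 63.1 ± 4.70 CPM in WT testes, 11.5 ± 1.54 in WT liver and 4.64 ± 0.810 in WT cerebellum (SD, n = 4). Rpl36al was lower in testes, at 36.5 ± 0.956 CPM in WT, than in liver, at 46.1 ± 6.97, and stood at 12.4 ± 0.609 in WT cerebellum (SD, n = 4). In WT testes each of these 4 paralogs stood above its X-linked namesake, by CPM without regard to length.

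**Figure D2:**
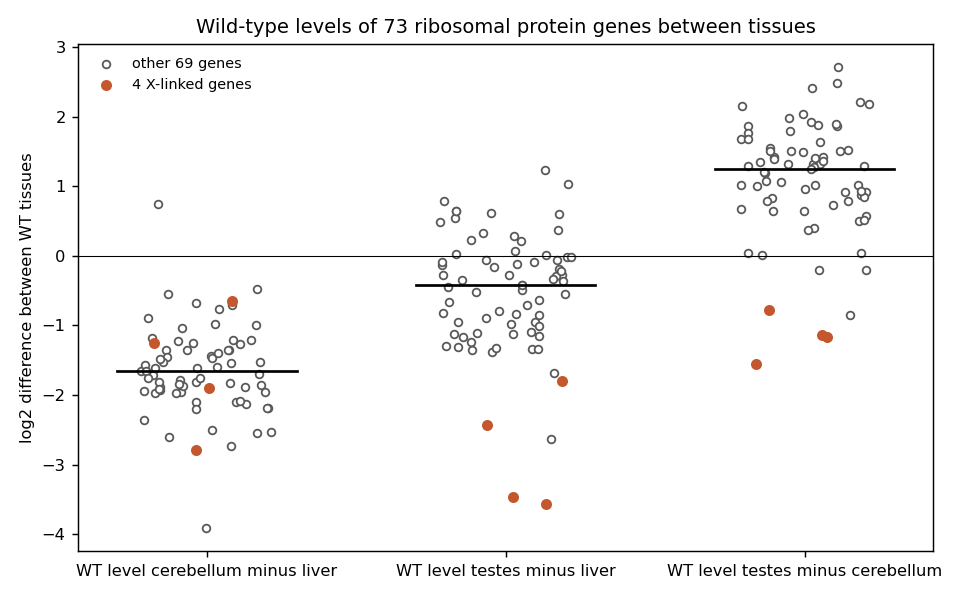
Differences in log2 level between WT tissues, with TMM factors (vertical axis), for 73 ribosomal protein genes in 3 comparisons, with X-linked genes as filled orange points, autosomal genes as open points and a black line at the median (-1.66, -0.42 and 1.24). The 4 X-linked genes lie at -1.79 or below in testes minus liver and at -0.78 or below in testes minus cerebellum, along with the autosomal Rps2 (-2.62) in the first and Rpl22 (-0.85) in the second. Horizontal spread within a comparison is only to part the points.

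**Figure D3:**
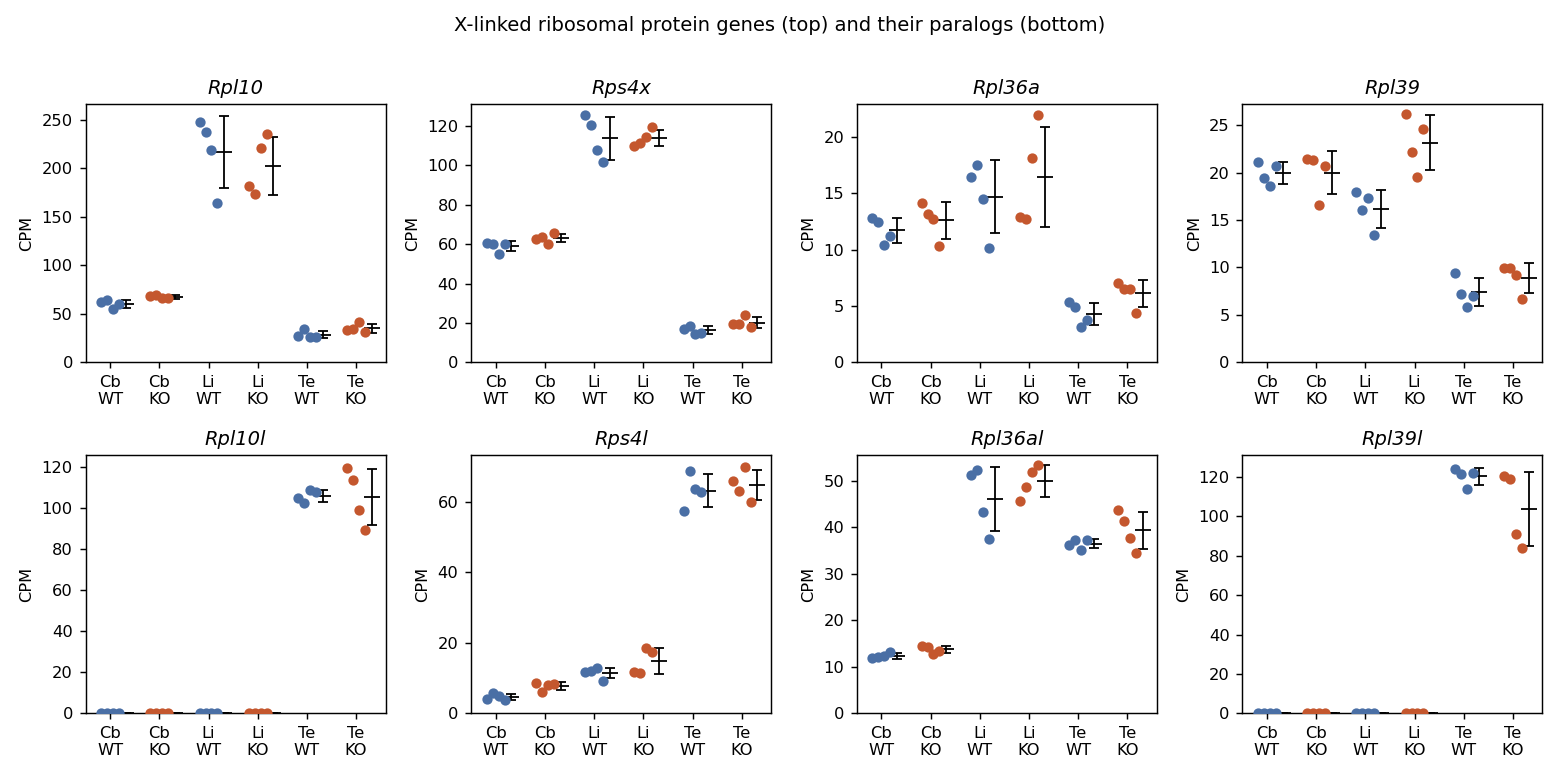
CPM in every library (vertical axes, each from 0) of the X-linked genes Rpl10, Rps4x, Rpl36a and Rpl39 (top) and their paralogs Rpl10l, Rps4l, Rpl36al and Rpl39l (bottom), in cerebellum (Cb), liver (Li) and testes (Te), WT in blue and KO in orange, with the mean ± SD of 4 libraries. Rpl10l and Rpl39l are near 0 outside testes and lie between 84.0 and 124 CPM within it, where Rpl10 lies between 26.2 and 41.3 CPM.

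The first comparison of genotypes asked how the ribosomal protein genes responded to the loss of Thumpd1 in cerebellum. They shifted upward nearly as a block and by little. Of 73 genes tested, 22 rose and none fell in KO at a limma adjusted p under 0.05, where 3.93% of all genes tested rose and 2.51% fell. 72 of 73 log2 changes were above 0, with a median of 0.15 and a range of -0.03 to 0.33, beside a median of -0.01 over all 16225 genes. At an unadjusted p under 0.05 the counts were 55 and 0, where 24.2% of all genes passed in either direction. edgeR and DESeq2 called 23 and 26 higher and 0 lower, where they called 3.91% and 4.33% of all genes higher. In 1 fit over all 24 libraries 2 rose, where 1.26% of all genes did. For 42 of the 73, or 57.5%, every KO library lay above every WT library, which held for 8.79% of all genes, and none lay below throughout, against 4.99%. The median, and the 72 genes above 0, stayed the same under TMM scaling (median 0.15), and the median was 0.16 with neighbouring libraries summed. That fit called 0 of the 73 and 0.296% of all genes, and 44 of the 73 had an unadjusted p under 0.05, against 16.3% of all genes. Leaving out a single library changed the count to 11 (WT 1), 24 (WT 2), 7 (WT 3), 9 (WT 4), 10 (KO 5), 33 (KO 6), 14 (KO 7) or 11 (KO 8), all higher in KO. In the same order, 1.86%, 3.56%, 2.0%, 2.06%, 1.91%, 7.48%, 2.39% and 2.34% of all genes were higher.

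Rps2 changed most. It stood at 84.8, 84.6, 74.7 and 71.4 CPM in WT and at 103, 94.6, 103 and 97.0 CPM in KO, without overlap. The limma log2 change was 0.33 ± 0.0589 (SE, adjusted p 0.00666). Rpl8, which lies close to the peptidyl transferase centre, stood at 89.8, 89.3, 82.4 and 83.5 CPM in WT and at 103, 104, 107 and 107 CPM in KO. Its 8 libraries also parted by genotype, and its log2 change of 0.28 ± 0.0402 (SE) had the lowest limma adjusted p of the 73 genes, 0.00178. Rps2 and Rpl8 were the 2 genes of the 22 that passed under each of 7 other ways of fitting all libraries (other tools, scalings, filters and rows), though not with neighbours summed, and in all 8 fits that left out a library.

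Large-subunit proteins made up 14 of the 22. Rpl4, which lines the tunnel through which the nascent chain leaves, stood at 133, 144, 125 and 133 CPM in WT and at 162, 150, 155 and 166 CPM in KO (log2 change 0.25 ± 0.0467, SE, limma adjusted p 0.00843). Rpl24, which forms a bridge between the subunits, stood at 39.1, 40.2, 39.5 and 38.5 CPM in WT and at 49.7, 50.6, 45.7 and 46.7 CPM in KO (log2 change 0.27). Both pairs of groups are free of overlap. Rpl12 of the stalk base (0.26), Rpl13 (0.25), Rpl18 (0.24) and Rpl28 (0.24) rose by like amounts, and Rpl14, Rpl37a, Rpl7a, Rpl23a, Rpl3 and Rpl6 by less.

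Among the small-subunit genes that rose were Rps2, Rps14, Rps16, Rps26, Rps10, Rps19 and Rps3. Rps3, at the mRNA entry site, stood at 88.8, 95.8, 89.1 and 88.1 CPM in WT and at 101, 102, 96.1 and 104 CPM in KO. The highest WT and the lowest KO value nearly touch, and the log2 change was 0.16. Of all 30 coding small-subunit genes 8 rose, with a median of 0.14, and of 43 large-subunit genes 14 rose, with a median of 0.17. Where an snoRNA gene lies inside, 12 of 28 rose, and where none does, 10 of 45 rose. The medians were 0.15 in both sets.

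Several genes of separate roles did not pass in cerebellum. Rps6, the substrate of S6 kinase, averaged 69.9 ± 4.11 CPM over WT libraries and 73.6 ± 5.30 CPM over KO libraries (SD, n = 4) with a log2 change of 0.06. Rps27a, made as a fusion with ubiquitin, gave 0.05, and Rpl22, an RNA-binding large-subunit protein, gave 0.08. Rpl5 and Rpl11, the partners of 5S rRNA, gave 0.13 and 0.17 (limma adjusted p 0.112 and 0.0845). The one log2 change below 0 was that of Rpl39 (-0.03), whose mean was 19.94 ± 1.15 CPM over WT and 19.97 ± 2.27 CPM over KO libraries (SD, n = 4).

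Other ribosomal protein genes outside the pattern moved alongside. Of the 7 left out by it, 4 rose in cerebellum and none fell: Rplp0 and Rplp1 of the stalk (both 0.27), Rpsa (0.20) and the scaffold Rack1 (0.17). The paralog Rps4l rose too, from 4.64 ± 0.810 to 7.73 ± 1.20 CPM (SD, n = 4, log2 change 0.71), and the other 4 paralogs tested did not pass. Of 18 translation factors and other genes with TOP mRNAs, 2 rose, the elongation factors Eef1a1 (0.30) and Eef2 (0.19), with a median of 0.05. Beside the 3.93% of all genes that rose and the 2.51% that fell, none of 78 mitochondrial ribosomal proteins passed in cerebellum (median 0.03), none of 35 proteasome genes (median -0.00) and 5 rose and 1 fell of 74 nuclear-encoded subunits of the respiratory chain (median 0.06), among them Ndufv1 (0.26), Ndufb8 (0.23), Cox6b1 (0.19) and, lower, Cox7a2 (-0.21). None of 14 chaperones and maturation factors of ribosomes and none of 12 regulators such as Mtor, Larp1 and Myc passed.

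Some cell-type markers also differed between cerebellum libraries. Markers of midbrain and forebrain, of which 3 of 5 tested rose (Nrgn, Th and Tal1), summed to 13.9 to 15.2 CPM in WT and 30.1 to 52.1 CPM in KO. Of 8 granule cell markers 4 fell (Gabra6, Neurod1, Etv1 and Zic1), while 4 had changes above 0 without passing (median -0.096). The 8 summed to 6212 to 6518 CPM in WT and 5823 to 6051 CPM in KO. Of 8 oligodendrocyte markers 2 rose (Mag and Cnp), with sums of 2573 to 3090 and 2995 to 3197 CPM. Of 8 Purkinje cell markers 2 rose (Pcp2 and Slc1a6), with sums of 6767 to 7234 and 6954 to 7285 CPM, and of 8 astrocyte markers 1 rose (Gfap), with sums of 2782 to 2894 and 2754 to 2890 CPM. Choroid plexus markers ran from 102 to 1767 CPM in WT and from 119 to 647 CPM in KO, with none passing, and of 4 blood genes tested 1 fell (9.34 to 9.75 against 4.75 to 8.25 CPM). Their part in the ribosomal protein result was not tested.

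**Figure D4:**
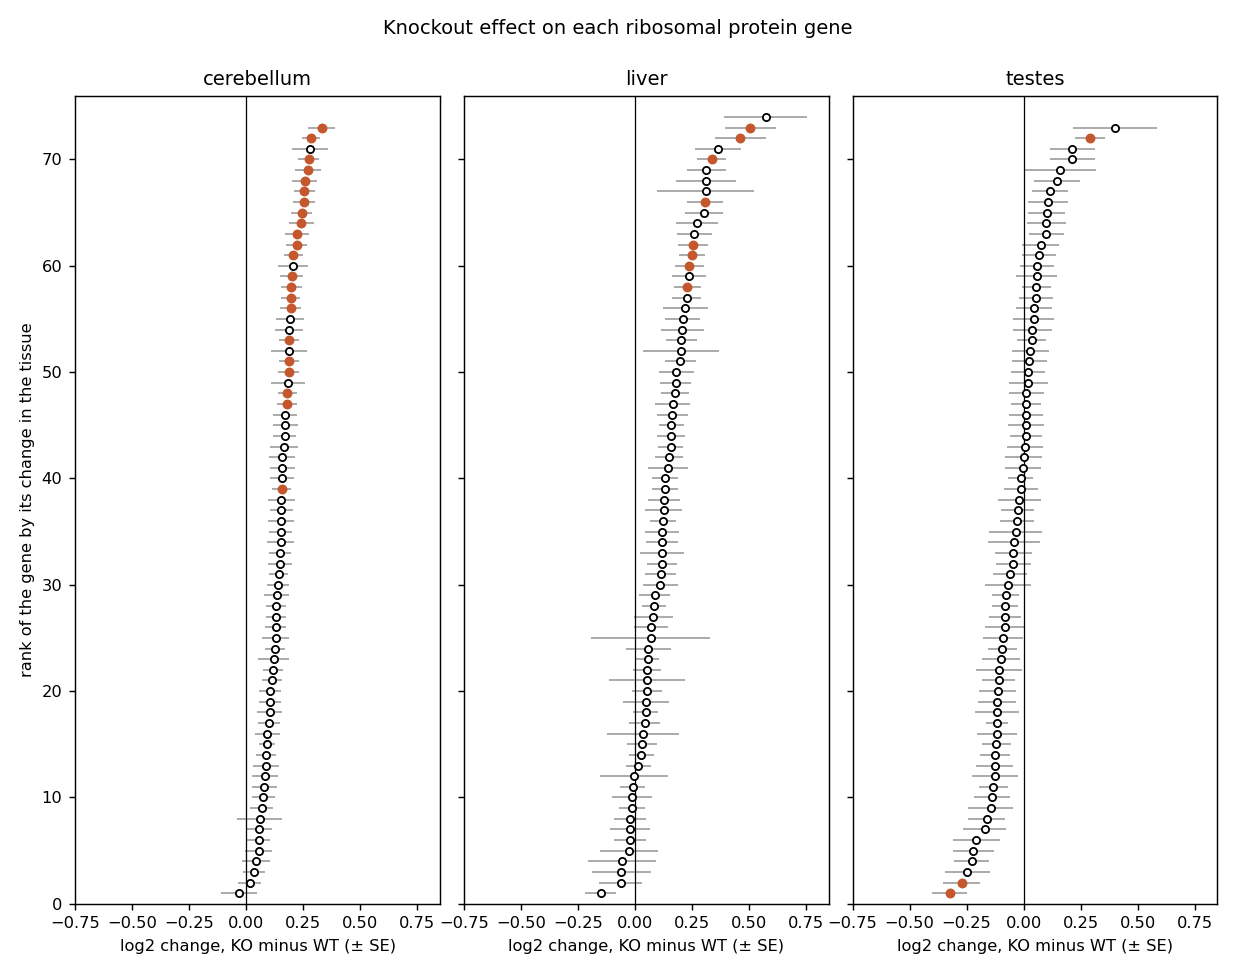
Log2 change of KO minus WT (horizontal axes) with its SE for each ribosomal protein gene tested in cerebellum, liver and testes, with 1 gene per row, ranked by its change within each tissue, and filled orange points where the limma adjusted p is under 0.05. In cerebellum 72 of 73 points lie right of 0 within a narrow band around 0.15, in liver they spread from -0.15 to 0.57, and in testes they scatter around -0.03.

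In liver fewer genes passed and the changes spread more widely. Of 74 genes tested, which here include Rps3a2, 8 rose and none fell, where 2.79% of all genes rose and 3.12% fell. 62 log2 changes were above 0, with a median of 0.13 and a range of -0.15 to 0.57, beside a median of -0.00 over 12816 genes. At an unadjusted p under 0.05 the counts were 31 and 1, where 23.3% of all genes passed in either direction. edgeR and DESeq2 called 3 and 12 higher and 0 lower, where they called 2.81% and 5.18% of all genes higher. For 12 of 74 every KO library lay above every WT library, against 7.34% of all genes, and none lay below throughout, against 5.31%. With neighbouring libraries summed 0 of 74 and 0.078% of all genes passed, and 9 of 74 had an unadjusted p under 0.05, against 9.39% of all genes. Without KO libraries 5 and 6 the count was 9, where 3.99% of all genes rose, and without 7 and 8 it was 15, where 5.93% rose. 3 genes (Rpl5, Rpl15 and Rpl17) were called in both and in the full set. Leaving out 1 library gave 1 (WT 1), 1 (WT 2), 3 (WT 3), 5 (WT 4), 5 (KO 5), 3 (KO 6), 7 (KO 7) or 3 (KO 8). In the same order, 1.04%, 1.11%, 1.76%, 2.79%, 1.97%, 2.09%, 2.27% and 1.35% of all genes rose. The 6 abundant noncoding RNAs took 27.2% and 26.4% of the counts in KO libraries 5 and 6 and 18.8% and 17.5% in 7 and 8. With these RNAs removed the count was again 8, where 2.79% of all genes rose.

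Rpl17, which sits at the mouth of the exit tunnel, stood at 89.4, 90.5, 75.6 and 68.8 CPM in WT liver and at 97.0, 97.0, 98.2 and 102 CPM in KO. The groups do not overlap. Its log2 change was 0.34 ± 0.0623 (SE, limma adjusted p 0.0116), and it passed under every alternative but the summing of neighbours. Rpl39, a small protein of the tunnel wall, stood at 17.95, 16.1, 17.3 and 13.4 CPM in WT and at 26.2, 22.2, 19.6 and 24.6 CPM in KO. Its change of 0.51 ± 0.111 (SE, limma adjusted p 0.0243) was the largest of the 8 called genes. It passed in 5 of the 8 fits that left out a library and lost its call without KO libraries 5 and 6 (adjusted p 0.0597).

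Rpl5 stood at 70.4, 72.95, 67.4 and 66.9 CPM in WT liver and at 105, 109, 87.3 and 79.4 CPM in KO, a log2 change of 0.46 ± 0.112 (SE, limma adjusted p 0.0375). All KO libraries were higher, and KO libraries 5 and 6 were further up than 7 and 8. It passed in 3 of the 8 fits that left out a library, with an adjusted p of at most 0.108, and lost its call without a filter on low counts (adjusted p 0.0770). Its partner Rpl11 averaged 66.3 ± 8.19 CPM over WT and 77.6 ± 10.1 CPM over KO libraries (SD, n = 4), with a log2 change of 0.26 and a limma adjusted p of 0.0734. Rpl15 went from 99.3, 106, 104 and 87.3 CPM in WT to 107, 117, 118 and 118 CPM in KO (log2 change 0.25), and passed in 4 of the 8 fits that left out a library. Rps18 (0.31), Rpl23 (0.24, with overlapping groups) and Rps7 (0.23) were also among the 8. Of the 8 fits that left out a library, Rps7 passed in none, Rpl23 in 1 and Rps18 in 2, and of 7 other ways of fitting all libraries Rps7 and Rpl23 passed in 3 and Rps18 in 4.

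The largest log2 change of the list in liver belonged to a gene that did not pass. Rps14, a small-subunit protein at the platform, stood at 130, 131, 129 and 153 CPM in WT and at 246, 237, 171 and 149 CPM in KO. KO libraries 5 and 6 lie far above the rest and KO library 8 below WT library 4, which left a change of 0.57 ± 0.183 (SE) with an adjusted p of 0.0913. Rps3 followed the same split at 183 and 184 CPM in KO libraries 5 and 6 and at 147 and 150 CPM in 7 and 8, against 125 to 138 CPM in WT (0.37, adjusted p 0.0577). Rpl10 went the other way, at 181 and 173 CPM in KO libraries 5 and 6 and 221 and 235 CPM in 7 and 8, within the WT range of 164 to 248 CPM.

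None of the 8 genes called in liver was among the 22 called in cerebellum. Rps2, with 611 ± 43.0 CPM over WT and 647 ± 53.9 CPM over KO liver libraries (SD, n = 4), had a log2 change of 0.06, and Rpl8 one of 0.02 (limma adjusted p 0.767 and 0.895). Of the 7 further ribosomal protein genes none passed in liver (median 0.07), and of 5 paralogs Rps27l rose, from 32.6 ± 1.82 to 41.0 ± 3.29 CPM (SD, n = 4). None of 18 TOP-list genes passed (median 0.02), and 2 of 78 mitochondrial ribosomal protein genes rose, Mrpl50 and Mrps33, a share near the 2.79% of all genes. Hepatocyte markers, of which Apoa1 and Fgb rose and Tat fell of 8, summed to 49341 to 64042 CPM in WT and 59220 to 86689 CPM in KO, and blood genes to 113 to 165 and 105 to 129 CPM with none of 3 passing. Their part was not tested.

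In testes the genes did not shift upward. Of 73 tested, 1 rose and 2 fell, where 9.74% of all genes rose and 10.7% fell. Every KO library lay above every WT library for 1 gene and below for 5, against 18.8% and 9.8% of all genes. 32 log2 changes were above 0, with a median of -0.03 and a range of -0.32 to 0.40, beside 0.00 over 19329 genes. At an unadjusted p under 0.05 the counts were 1 and 6, where 37.0% of all genes passed in either direction. Under TMM scaling 1 rose and 5 fell, where 11.2% and 11.7% of all genes did, with a median of -0.08 and 18 changes above 0. Lower calls numbered 5 in edgeR, 7 in DESeq2 and 17 in 1 fit over all 24 libraries, where the median was -0.12, beside 11.4%, 13.1% and 13.8% of all genes in the same fits. Without KO library 8 the median was 0.04, on the other side of 0. In that fit 6 were higher and 2 lower, where 7.8% and 9.14% of all genes were, so the rises were near the share of all genes. Leaving out WT 2 gave 2 higher and 1 lower with a median of 0.00, WT 3 gave 0 and 1, WT 4 gave 1 and 0, and KO 5 gave 1 and 4. In these fits 6.42%, 3.96%, 3.93% and 12.6% of all genes were higher, and 7.1%, 4.95%, 5.04% and 13.0% lower. With neighbouring libraries summed 0 of 73 passed, as did 1 of all 19329 genes, and 3 of 73 had an unadjusted p under 0.05, against 20.9% of all genes. In the main fit 37 genes had transcripts under the list's median length. Of these 11 had changes above 0 (median -0.11), and both falls were among them. Of the 36 longer ones 21 had changes above 0 (median 0.01). The part of length was not tested.

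Rpl14 of the large subunit was the gene that rose. It stood at 54.1, 58.8, 50.9 and 53.3 CPM in WT testes and at 67.7, 63.5, 75.4 and 66.9 CPM in KO. The groups do not overlap, and the log2 change was 0.29 ± 0.0666 (SE, limma adjusted p 0.0131). It had also risen in cerebellum, from 50.9 ± 1.58 to 60.0 ± 3.39 CPM (SD, n = 4, 0.22), while in liver it gave 0.05. It was the one gene of the list called in more than 1 tissue.

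Rpl38, a large-subunit protein known for its part in the translation of Hox mRNAs in the embryo, stood at 45.3, 48.7, 45.7 and 47.6 CPM in WT testes and at 44.4, 40.2, 37.8 and 35.6 CPM in KO. It fell by 0.32 on the log2 scale (SE 0.0766, limma adjusted p 0.0152), with KO library 5 just below the lowest WT library. Rps15, near the decoding site, stood at 107, 120, 109 and 118 CPM in WT and at 100.2, 98.7, 102 and 78.9 CPM in KO. It fell by 0.27 (SE 0.0815, limma adjusted p 0.0368), and KO library 8 stood well below the other KO libraries. Rps15 lost its call without WT 2, WT 3 or WT 4 (adjusted p 0.0944, 0.0757 and 0.105) and without a filter on low counts (0.0593).

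The X-linked genes all had log2 changes above 0 in testes, and none of them passed. Rpl36a gave 0.40 (means of 4.29 ± 1.02 CPM over WT and 6.10 ± 1.21 CPM over KO libraries, SD, n = 4), Rpl10 and Rps4x gave 0.21 each and Rpl39 gave 0.16. The limma adjusted p was 0.139, 0.136, 0.143 and 0.476 in that order, and WT and KO libraries overlapped for each. Their median was 0.21, against -0.03 for the list. Their testis paralogs Rpl10l, with 106 ± 2.82 CPM over WT and 105 ± 13.7 CPM over KO libraries, and Rpl39l, with 120 ± 4.36 and 104 ± 18.9 CPM (SD, n = 4), did not pass either, with log2 changes of -0.03 and -0.25.

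Calls in the other lists in testes are given as a description, beside the 9.74% of all genes that rose and the 10.7% that fell. Of the 7 further ribosomal protein genes 1 fell and none rose (median -0.05). Of 18 TOP-list genes 3 fell, Eef1d, Eef1g and Eif3k, and 2 rose, Eif4b and Hnrnpa1. Mitochondrial ribosomal proteins gave 1 higher and 4 lower of 78 (median -0.09), the lowest being Mrpl54 (-0.55) and Mrps30 (-0.37), and the respiratory chain 1 higher and 9 lower of 74 (median -0.12), among them Cox7a2 (-0.44), Ndufa13 (-0.38), Atp5e (-0.36) and Ndufb2 (-0.34). Of the maturation factors Tsr2, the chaperone of Rps26, rose by 0.38 and Aamp fell by 0.15, and of the regulators Rps6kb1 (0.29) and Trp53 (0.37) rose.

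Marker sums differed between testes genotypes as well. Of 8 Sertoli cell markers 7 rose, among them Sox9, Wt1 and Fshr, with sums of 1070 to 1273 CPM in WT and 1368 to 1981 CPM in KO. Of 8 round spermatid markers 4 fell, among them Izumo1 and Catsper3, with sums of 862 to 872 and 680 to 820 CPM, and of 8 elongating spermatid markers 4 fell, among them the protamines Prm1 and Prm2, with sums of 14394 to 15218 and 10935 to 13536 CPM. Of 8 spermatogonia markers 1 rose (Zbtb16), with sums of 464 to 497 and 522 to 532 CPM, and of 8 spermatocyte markers 1 fell (Ccna1), with sums of 969.7 to 1019 and 999.9 to 1060.1 CPM. Of 7 macrophage markers tested 1 fell (Aif1), with sums of 219 to 224 and 173 to 201 CPM, though 4 of the 7 had changes above 0 (median 0.16). Of 7 Leydig cell markers Hsd3b1 rose and Hsd3b6 fell, with sums of 1100.2 to 1192 and 973 to 1604 CPM. The germ cell and somatic markers of testis were all detected. Their part in the ribosomal protein values was not tested.

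**Figure D5:**
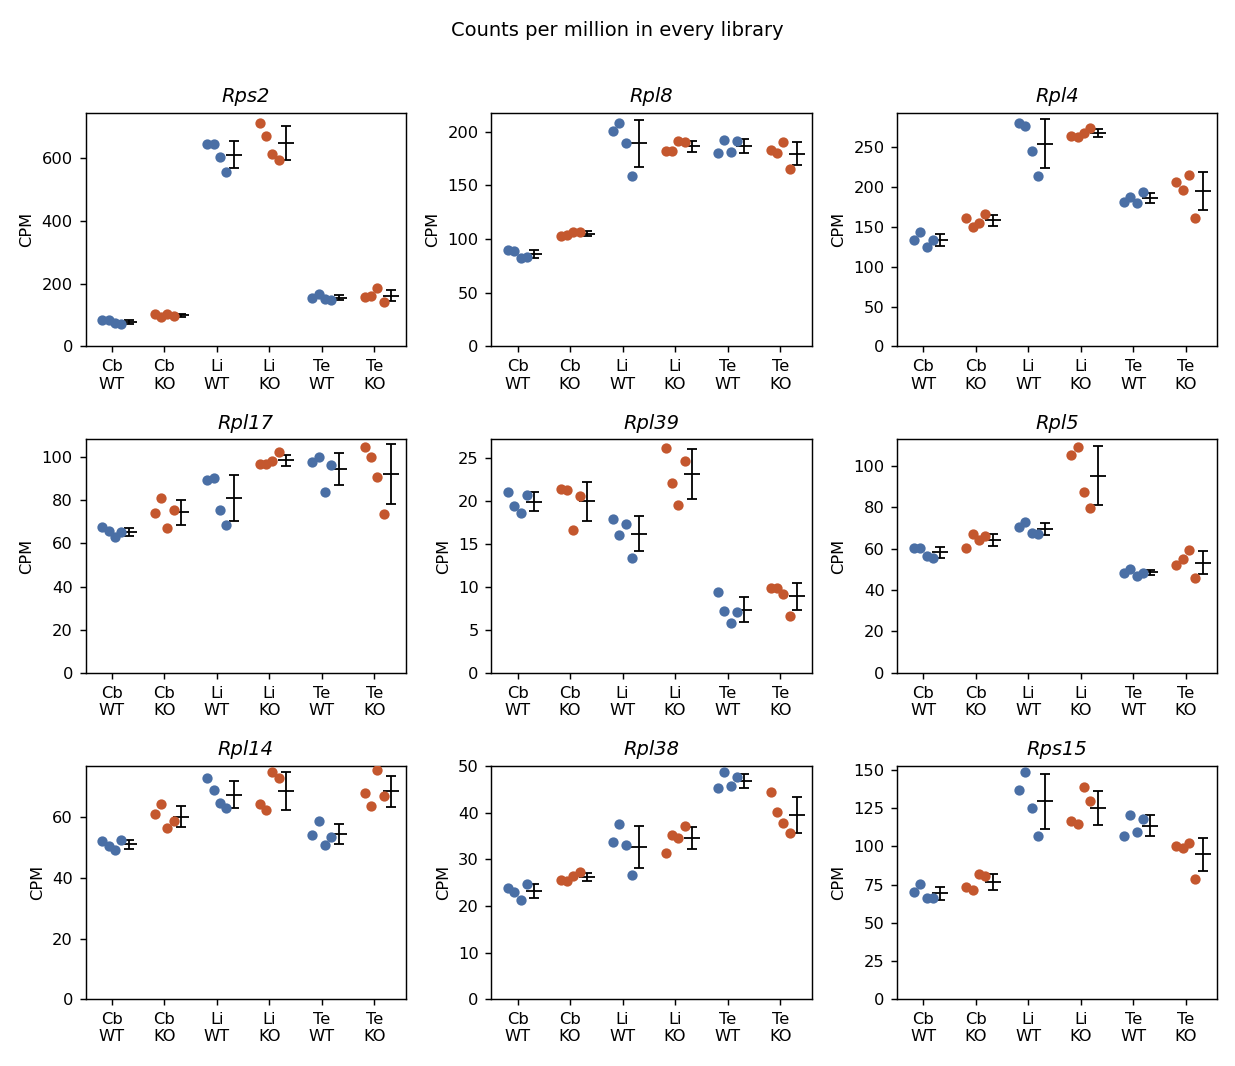
CPM in every library (vertical axes, each from 0) of 9 ribosomal protein genes in cerebellum (Cb), liver (Li) and testes (Te), WT in blue and KO in orange, in numerical order within a group, with the mean ± SD of 4 libraries. WT and KO do not overlap in cerebellum for Rps2, Rpl8 and Rpl4, in liver for Rpl17, Rpl39 and Rpl5, and in testes for Rpl14, Rpl38 and Rps15.

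A gene that passes in one tissue and not in another need not differ between them, so the KO effects themselves were compared in 1 fit over all 24 libraries. Between cerebellum and liver 1 of 73 genes differed, where 7.67% of all genes did. It was Rpl8, whose KO effect was larger in cerebellum by 0.27 ± 0.0713 (SE, limma adjusted p 0.0192). The median difference over the 73 genes was 0.05. The count was 3 with quantile normalization over all 24 libraries, where 8.08% of all genes passed, and 4 without liver WT 4, where 11.1% did. It was 2 without liver KO 7, liver KO 8, testes WT 1 or testes KO 8, where 10.3%, 6.91%, 7.66% and 8.27% did. Neighbours summed gave 0 with 2 at an unadjusted p under 0.05, where 0.09% and 12.9% of all genes passed. On library totals without TMM factors the count was 0, where 5.83% of all genes passed, with a limma adjusted p of 0.0567 for Rpl8.

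Testes differed from both. In testes minus liver 25 of 73 differed, all with the lower KO effect in testes, where 7.92% of all genes were lower and 7.95% higher. The median difference was -0.26 and 69 were below 0. In testes minus cerebellum 25 of 73 also had the lower effect in testes, where 7.42% of all genes did and 7.13% had the higher one, with a median of -0.29 and 68 below 0. Both comparisons use the same testes libraries. Without testes KO 5 the counts were 40 and 41, where 10.4% and 8.64% of all genes were lower. With quantile normalization over all 24 libraries the counts were 17 and 12, where 6.89% and 3.7% were lower. With neighbouring libraries summed 0 passed in either, where 0.234% and 0.045% of all genes did. In these fits 23 and 30 were lower at an unadjusted p under 0.05, where 17.8% and 16.3% of all genes passed in either direction, with medians of -0.25 and -0.29. On library totals 8 had the lower KO effect in testes than in liver and 1, Rpl14, the higher one (median -0.11), and 9 had the lower one than in cerebellum (median -0.17). On that scale the median over all genes was 0.14 and 0.12, and 3.22% and 2.39% of all genes were lower and 15.8% and 14.7% higher.

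Rpl35, a large-subunit protein at the tunnel exit, is an example that had not passed within any tissue. It stood at 32.7, 36.8, 30.05 and 29.2 CPM in WT cerebellum and at 37.0, 35.8, 43.1 and 42.0 CPM in KO. In liver it stood at 51.2, 51.5, 57.1 and 49.7 CPM in WT and 66.8, 66.7, 62.6 and 57.6 CPM in KO, and in testes at 101, 107, 101 and 104 CPM in WT and 95.1, 97.4, 89.7 and 75.5 CPM in KO. KO lay above WT in liver, below it in testes and overlapped it by 1 pair of libraries in cerebellum. The difference of its KO effect was -0.63 both in testes minus liver and in testes minus cerebellum (SE 0.118 and 0.130, limma adjusted p 0.00108 and 0.00308). Exons of Rpl35 overlap Arpc5l and Wdr38 on the other strand, so its reads may not be told apart from theirs.

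The remaining large differences between testes and liver were those of Rps14 (-0.81), Rps7 (-0.58), Rpl41 (-0.56) and Rps18 (-0.54). Between testes and cerebellum they were those of Rpl38 (-0.54), Rps15 (-0.53), Rps7 (-0.51) and Rpl24 (-0.50). On library totals Rpl24 lost its call (adjusted p 0.0815). Rps7, of the small subunit, averaged 88.9 ± 10.4 CPM over WT and 101 ± 2.86 CPM over KO libraries of liver, and 216 ± 9.02 CPM over WT and 184 ± 33.0 CPM over KO libraries of testes (SD, n = 4). The testes KO libraries 5 and 6 were at 213 and 211 CPM, within the WT range of 206 to 225 CPM, and libraries 7 and 8 at 168 and 145 CPM.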

How the data were processed

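Total RNA depleted of ribosomal RNA was read as paired ends from a stranded library kit. The authors aligned reads with STAR to mm10, and deposited RSEM expected counts per gene on the GENCODE M21 annotation, not normalized; tool versions and the strand used in counting are not given in the sources used here. All 24 columns matched the labels. The genes and lists described were chosen with earlier results of these data known.

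CPM in the text is the expected count per 1000000 of a library's total (16353797 to 37889615). Within a tissue, genes with at least 1 CPM in at least 4 libraries were quantile normalized with voom and tested in limma 3.58.1 (R 4.3.3), two-sided, with Benjamini-Hochberg adjusted p under 0.05. KO effects and WT levels were compared between tissues in 1 limma-voom fit with TMM factors over genes passing in all 3 tissues (11112). SE is that of the moderated fit. The 36 pairs of libraries within groups differed by more than counting noise (chi-square per gene 2.31 to 346). The steps were tested on simulated data.

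Alternatives were edgeR 4.0.16 and DESeq2 1.42.0 on rounded counts, TMM, no filter, removal of 6 noncoding RNAs, adding of pseudogene rows, 1 fit over 24 libraries, and each library left out. Summing of neighbouring libraries, comparing tissues on library totals without TMM factors, and leaving out pairs of liver KO libraries were added after seeing the data. Named genes are the 8 largest rises and falls called per tissue, the 5 largest differences between tissues, the highest and lowest in level, Rps6, Rpl10, Rpl22, Rps27a, Rpl41, Rps4x, Rpl39, Rps3, Rpl5 and Rpl11, and called members of the lists; marker lists are given mainly by counts and sums. Other names, among them further called genes, were chosen after their values were seen. Sequences are RefSeq's. Figures were drawn with matplotlib 3.10.9. Results of a few genes are not reported here by name.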

Additional observations from a re-analysis of the deposited data

Results flagged for a closer look

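In 7 of 124 groups of 4 libraries, over the genes named, 1 library stood far from the other 3, by a gap of more than 0.829 of the group's range in log2 CPM, which chance gives in about 1 of 20 groups. Among called genes these were Rpl15 in liver KO (gap 0.956 of the range, library 5 at 107 CPM and the others at 117 to 118 CPM), Rps15 in testes KO (0.869, library 8 at 78.9 CPM and the others at 98.7 to 102 CPM) and Rps3 in cerebellum WT (0.870, library 2 at 95.8 CPM and the others at 88.1 to 89.1 CPM). Among genes not called they were Rpl22 in testes KO (0.937, library 8 at 16.3 CPM), Rps4x in cerebellum WT (0.918, library 3 at 55.1 CPM), Rpl39 in cerebellum KO (0.861, library 7 at 16.6 CPM) and Rpl10 in testes WT (0.838, library 2 at 34.2 CPM).

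The KO effect differed between tissues, by the interaction contrast of the limma fit, for 1 gene between cerebellum and liver, for 25 between testes and liver and for 25 between testes and cerebellum. Of all genes 7.67%, 15.9% and 14.5% differed, in the same order. Between cerebellum and liver the gene was Rpl8 (0.27). In testes minus liver the largest were Rps14 (-0.81), Rpl35 (-0.63), Rps7 (-0.58), Rpl41 (-0.56) and Rps18 (-0.54). In testes minus cerebellum they were Rpl35 (-0.63), Rpl38 (-0.54), Rps15 (-0.53), Rps7 (-0.51) and Rpl24 (-0.50). Both comparisons with testes share the testes libraries.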

How the results depend on the processing

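No ribosomal protein gene called in a KO comparison and named by the rule turned its sign under an alternative, whereas WT tissue differences did on library totals. The counts moved as follows, and the cause was not tested. In cerebellum, where 22 rose, 1 fit over 24 libraries gave 2, where 1.26% of all genes rose. Leaving out 1 library gave 7 (without WT 3, 2.0% of all genes) to 33 (without KO 6, 7.48%), with a median of 0.12 to 0.17. In liver, where 8 rose, edgeR gave 3, TMM 4, no filter 3, and leaving out KO libraries 7 and 8 gave 15. Of all genes 2.81%, 2.99%, 0.887% and 5.93% rose in these fits. Leaving out 1 library gave 1 (without WT 1, 1.04% of all genes) to 7 (without KO 7, 2.27%), with a median of 0.11 to 0.16. In testes, where 2 fell, edgeR gave 5, DESeq2 7, TMM 5, no filter 1 and 1 fit over 24 libraries 17. Of all genes 11.4%, 13.1%, 11.7%, 3.87% and 13.8% fell in these fits. Leaving out 1 library gave 0 (without WT 4, 5.04% of all genes) to 4 (without KO 5, 13.0%). The 1 rise in testes became 0 (without WT 3, 3.96% of all genes) to 6 (without KO 8, 7.8%). The testes median was -0.076 with TMM and -0.12 in 1 fit over 24 libraries, and -0.059 to 0.043 without 1 library. Of the differences between tissues, cerebellum against liver gave 3 with quantile normalization over 24 libraries, where 8.08% of all genes differed. Without 1 library it gave 1 to 4 (4 without liver WT 4, 11.1% of all genes). Testes against cerebellum gave 12 with quantile normalization, where 3.7% of all genes were lower. Without 1 library it gave 18 (without cerebellum WT 3, 5.51% lower) to 41 (without testes KO 5, 8.64% lower). Testes against liver gave 19 (without testes WT 4, 5.99% lower) to 40 (without testes KO 5, 10.4% lower). On library totals without TMM factors the differences of KO effect numbered 0, 9 and 9 (main 1, 25 and 25), where 5.83%, 19.0% and 17.0% of all genes differed. Of the genes called between WT tissues both ways 10 turned direction in testes against liver, 5 in cerebellum against liver and 0 in testes against cerebellum. Neighbouring libraries summed, with 2 samples per group, gave 0 higher and 0 lower calls in every KO comparison and 0 differences of effect, where no more than 0.296% of all genes passed, whereas WT tissues still differed for 73, 56 and 69 genes. Over 88 named pairs of a gene and a comparison and 1813 alternatives, 1631 kept direction and side of the threshold, 125 lost the call, 19 gained it and 38 changed sign. The 38 belonged to 14 pairs, none called in the main or in the changed fit. Under DESeq2, edgeR, TMM and 1 fit over 24 libraries, the log2 change of Rpl8 in liver was -0.0049, -0.0082, -0.0064 and -0.0057, of Rps2 in testes -0.0075, -0.0038, -0.0065 and -0.051, and of Rps6 in testes -0.027, -0.024, -0.023 and -0.070. TMM and 1 fit gave -0.0020 and -0.047 for Rpl4 in testes, and 1 fit gave -0.048 for Rps27a in testes. Without liver KO 5 and 6, Rpl10 was at 0.069 and Rps2 at -0.13, and without 7 and 8, Rpl13 was at 0.035 and Rpl36a at -0.12. Without 1 library the log2 change ran from -0.12 to 0.081 for Rpl11, -0.049 to 0.024 for Rpl8, -0.087 to 0.0050 for Rps21, -0.043 to 0.090 for Rps27a and -0.0093 to 0.13 for Rps2 in testes, from -0.016 to 0.040 for Rpl8, -0.043 to 0.012 for Rpl13, -0.012 to 0.13 for Rps2 and -0.071 to 0.12 for Rps3a2 in liver, and from -0.065 to 0.051 for Rpl39 in cerebellum.

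Replicate numbers are shared across tissues and not within one. No paired analysis was possible within a tissue because WT carries 1 to 4 and KO 5 to 8. Across tissues 6 of 24 same-numbered pairs had a correlation of deviations over 0.1 (range -0.185 to 0.233, median 0.0529, against -0.00528 for other pairs), and the own number was highest in 10 of 24. This is short of a correlation over 0.1 in every pair, so the block was not used for the main values, and whether same-numbered libraries share more than a number cannot be told from it. With the replicate number as a block, 3 genes differed between cerebellum and liver, 27 between testes and liver and 29 between testes and cerebellum. Of all genes 11.1%, 19.8% and 11.1% differed in these comparisons, in the same order. Depth limits Rps3a2 and Rps3a3, which stood at no more than 1.74 and 0.577 CPM in any library. In testes Rpl36a stood at 3.12 to 7.08 CPM and Rpl39 at 5.87 to 9.90 CPM, and whether depth limits them was not tested.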
